A study of Mus musculus with 6 samples.

Results

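Osteoblast lineage transcription regulators were read in bulk RNA-seq of the newborn calvaria. The group held 9 genes, *Runx1*, *Runx2*, *Runx3*, *Cbfb*, *Sp7*, *Hdac4*, *Twist1*, *Twist2* and *Prrx1*, chosen by name, and all 9 were among the 44556 genes listed in the count tables. Parietal bone came from C57BL/6 newborns of 2 genotypes, with 3 libraries each. The control mice carried OsxCre, a Cre recombinase transgene driven by *Sp7* (Osterix) regulatory sequence, and the compared littermates, labelled OsxCre;Stat3fl/fl, carried the same transgene together with loxP-flanked *Stat3* alleles. Cre was thus present in both genotypes, and its activity is expected mainly in osteoblast precursors. *Stat3* in other cells of the bone was not measured apart. Because the transgene uses control sequence of *Sp7*, one of the 9 genes, reads from it could in principle fall on *Sp7*, and this was not tested.

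Bone-forming osteoblasts arise from mesenchymal progenitors in an order set by transcription factors. RUNX2, bound to its partner CBFB, commits progenitors to the lineage, and SP7 acts after it to complete the step to bone-forming cells. TWIST proteins and the deacetylase HDAC4 hold RUNX2 back, PRRX1 marks the mesenchyme from which the cranial bones grow, and RUNX1 and RUNX3 are relatives of RUNX2 best known for their roles in blood cells and lymphocytes, with roles in skeletal cells as well.

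The libraries held between 8193651 and 12080044 counts, and those labelled OsxCre;Stat3fl/fl were the smaller ones. *Stat3*, counted over the whole gene, had between 1357 and 1685 counts in OsxCre and between 1262 and 1328 in libraries labelled OsxCre;Stat3fl/fl, and after scaling the edgeR estimate was 0.12 on the log2 scale, with an adjusted p of 0.442. The count therefore does not show the deletion, and genotypes rest on the labels. The study's text calls the newborns male, whereas *Xist* had over 1000 counts in all 6 libraries, and 4 Y-linked genes together had at most 2. Osteoblast markers were abundant in both genotypes, with *Col1a1* at 13055 ± 2131 CPM and *Ibsp* at 1003 ± 65.3 CPM in OsxCre (SD, n = 3).

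A sequence run shared by the 3 RUNX genes is shown because it holds the RUNX core motif. Only windows of these 3 genes were searched for a shared run. RefSeq promoter windows of GRCm38.p6, from 250 bases before to 50 bases after an annotated start, were found for 8 of the 9 genes, in 10 windows. The longest run common to 1 window of each RUNX gene was 18 bases long and held the RUNX core ACCACA at 2 places, in capitals here, each within 30 bases of context.
Runx1 (chr16:92826027-92826056, minus strand): ctcataaacaACCACAgaACCACAagttgg
Runx2 (chr17:44814585-44814614, minus strand): ctcacaaacaACCACAgaACCACAagtgcg
Runx3 (chr4:135120501-135120530, plus strand): tggtccctcaACCACAgaACCACAaggcca
The run lay at bases 27 to 44 after the start in *Runx1*, at 22 to 39 in *Runx2*, and between -136 and -119 in *Runx3*. On either strand it occurred in 4 of the 32817 windows of the table, which belong to *Runx1*, *Runx2*, *Runx3* and *Gm16225*. At least 2 matches to ACCACA on either strand were present in 1.81% of all windows. These are matches of letters and say nothing about binding.

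Levels are given as CPM, counts scaled by TMM to a common library size. Counts sufficed for a test of 8 of the 9 regulators, and each of the 8 was fitted at a lower level in libraries labelled OsxCre;Stat3fl/fl, from a log2 fold change of -0.40 for *Hdac4* to -0.01 for *Twist2*. Over all 15600 genes tested, 50.7% had a negative log2 fold change. The median over the 8 regulators was -0.24, beside -0.00 over all genes. None passed an adjusted p of 0.05 in edgeR's quasi-likelihood test, where 0.481% of all genes were called lower, 0.776% higher and 1.26% in either direction. At an unadjusted p under 0.05, 3 regulators were reached, *Cbfb*, *Hdac4* and *Twist1*, all in the lower direction, beside 8.34% of all genes lower, 8.03% higher and 16.4% in either direction. DESeq2 and limma-voom also called 0 at the adjusted p, and 2 and 3 at the unadjusted p. The same 3 genes were the ones whose libraries did not overlap in the lower direction, beside 12.2% of all genes in that direction and 23% in either. The study's text itself names *Sp7*, *Cbfb* and *Ibsp* from these samples, so their direction is no separate evidence. In bulk tissue, fewer cells of a type and less RNA per cell cannot be told apart.

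**Figure D1:**
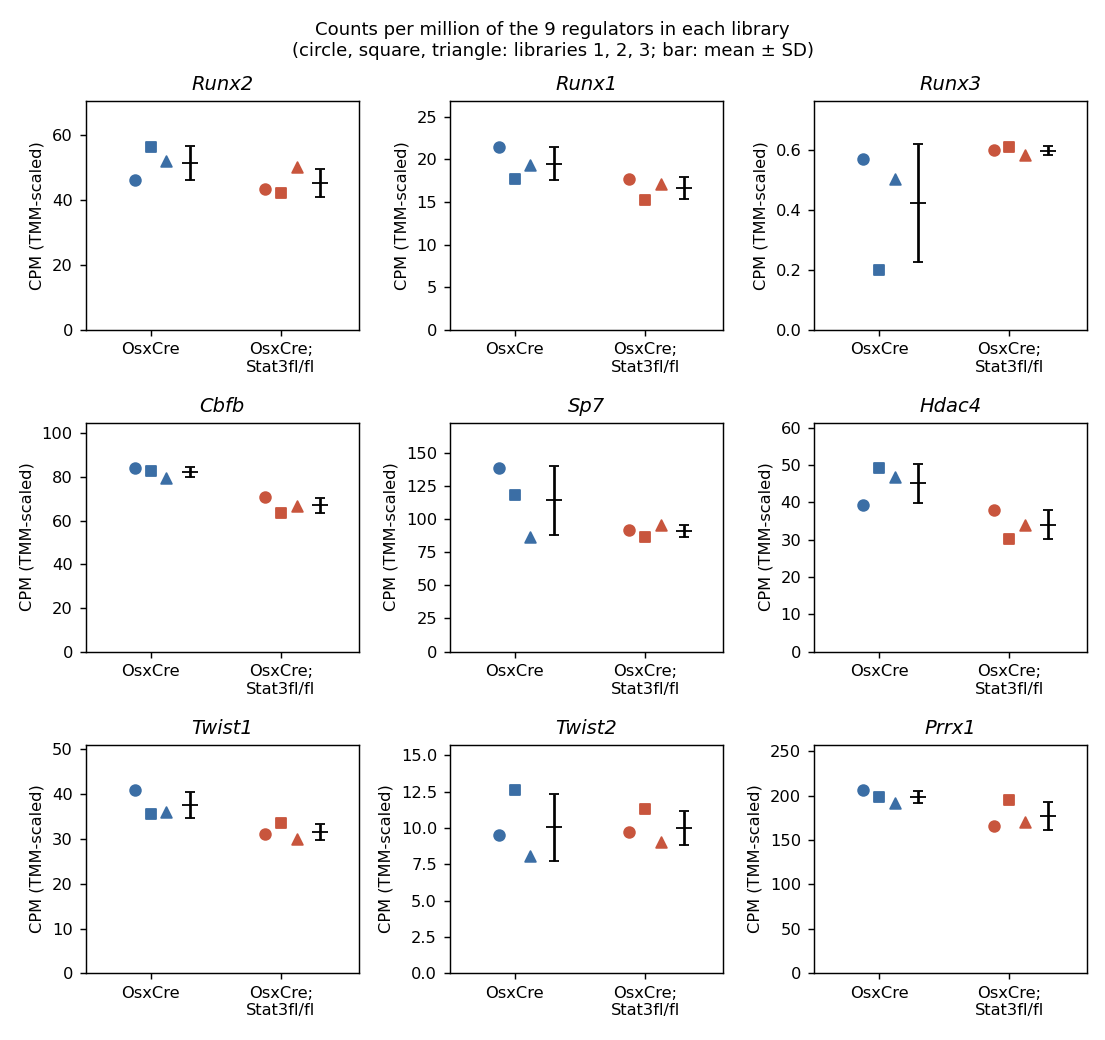
Each panel plots TMM-scaled CPM (y axis, from 0) of 1 regulator in the 3 OsxCre libraries (blue) and the 3 libraries labelled OsxCre;Stat3fl/fl (red), with mean ± SD beside them. *Cbfb*, *Hdac4* and *Twist1* have all red points below all blue points, *Sp7* spans 86.3 to 138 CPM within OsxCre, and *Runx3* stays under 1 CPM.

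*Runx2*, the factor that commits cells to the osteoblast lineage, had 46.1, 56.5 and 52.1 CPM in OsxCre libraries 1, 2 and 3. It had 43.5, 42.0 and 50.1 CPM in libraries 1, 2 and 3 labelled OsxCre;Stat3fl/fl. Library 3 of the second group lay above library 1 of the first, so the genotypes overlapped. The log2 fold change was -0.19, with a 95% interval from -0.44 to 0.06 (adjusted p = 0.427, edgeR), so a loss of *Runx2* beyond 1.5-fold lay outside the interval. Its gene spans 318811 bases of chromosome 17, from 44495987 to 44814797 in GRCm38.p6. Its transcripts start at more than one promoter, and gene counts do not tell them apart. Annotated genes on the opposite strand overlap exons of *Runx2*, *Hdac4* and *Runx1* by 519, 132 and 106 bases, and the library kit does not mark strand. The antisense gene *Runx2os2*, which is listed apart, had 1 count over the 6 libraries.

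*Cbfb*, which encodes the partner that steadies RUNX proteins on DNA, showed the most precise difference of the group. It had 83.9, 82.9 and 79.6 CPM in the OsxCre libraries and 70.6, 63.5 and 66.9 CPM in libraries labelled OsxCre;Stat3fl/fl. Every library of the second group was lower than every library of the first, and the variation within a genotype was small, at 2.78% and 5.31% of the mean. The log2 fold change of -0.29 (standard error 0.07) had a 95% interval from -0.46 to -0.13, which is a level 18.4% lower, and the adjusted p was 0.108 in edgeR. Each of the 6 fits without one library kept an unadjusted p under 0.05 for *Cbfb*, with adjusted p between 0.131 and 0.280.

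*Runx1*, a RUNX gene of blood stem cells that is also active in skeletal progenitors, had 21.5, 17.7 and 19.4 CPM in OsxCre. In libraries labelled OsxCre;Stat3fl/fl it had 17.7, 15.2 and 17.1 CPM. Library 2 of OsxCre and library 1 of the other genotype were nearly equal, and the log2 fold change of -0.23 had an interval from -0.52 to 0.06 (adjusted p = 0.405, edgeR). Blood cell markers are given beside *Runx1*. The 11 erythroid markers summed to between 7239 and 9431 CPM in OsxCre, and between 3615 and 6585 CPM in libraries labelled OsxCre;Stat3fl/fl. Of 8 tested, 7 were lower and edgeR called 0, while DESeq2 called 1. At an unadjusted p under 0.05 in edgeR, 3 were lower, beside 8.34% of all genes. *Hbb-b1* and *Hbb-b2* had 0 counts in all libraries, whereas the beta-globin genes *Hbb-bs* and *Hbb-bt* had enough counts for a test. The 11 leukocyte markers summed to between 512 and 669 CPM in OsxCre and between 383 and 445 CPM in libraries labelled OsxCre;Stat3fl/fl. Of 9 tested, 5 were lower and edgeR called 1 lower, beside 0.481% of all genes, while DESeq2 called 2 lower. At an unadjusted p under 0.05 in edgeR, 3 were lower and 1 higher, beside 8.34% and 8.03% of all genes. The edgeR call was *S100a9*, a neutrophil protein, which fell by 1.25 on the log2 scale (adjusted p = 0.0423, edgeR). That call was lost in each of the 6 fits without one library (adjusted p between 0.0575 and 0.157). The part of blood cells in the *Runx1* values was not tested.

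*Runx3*, known from T cells and sensory neurons and from cartilage, was close to absent. It had 6, 2 and 6 counts in the OsxCre libraries and 5, 5 and 5 counts in libraries labelled OsxCre;Stat3fl/fl, where a count of 0 would allow up to 3 counts. At 29 counts in all it was too low to enter the test. Scaled to CPM, the 3 libraries labelled OsxCre;Stat3fl/fl (0.58 to 0.61) lay above the OsxCre libraries (0.20 to 0.57), a separation in the higher direction that 10.8% of all tested genes showed, and one that rests on a handful of reads. Of the T and NK lymphocyte markers, *Cd8a* and *Cd8b1* had 0 counts in all libraries, *Cd3d* and *Cd3e* had at most 3 and *Cd3g* at most 2, and the 10 markers summed to between 5.14 and 7.60 CPM over the 6 libraries.

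Within the RUNX family, *Runx2* held most of the reads in every library, and the ranges of the *Runx2* and *Runx1* shares overlapped between genotypes. *Runx2* made up 67.6%, 76.0% and 72.4% of all RUNX counts in the OsxCre libraries and 70.4%, 72.7% and 73.9% in libraries labelled OsxCre;Stat3fl/fl. *Runx1* made up 23.7% to 31.6% and 25.2% to 28.6%. *Runx3* made up 0.838%, 0.267% and 0.699% in OsxCre and 0.973%, 1.06% and 0.864% in libraries labelled OsxCre;Stat3fl/fl, higher in each of the latter but from 2 to 6 counts a library, with exact binomial 95% intervals that overlapped for all libraries and that cover counting error only. Such shares do not depend on how libraries are scaled, but they are not corrected for gene length. There were 1.23, 1.11 and 1.10 *Cbfb* counts per RUNX count in OsxCre and 1.14, 1.10 and 0.988 in libraries labelled OsxCre;Stat3fl/fl, so the ratio of partner to RUNX transcripts overlapped between genotypes, unlike *Cbfb* itself.

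*Sp7*, the zinc finger factor that acts after RUNX2, varied widely among the controls. The OsxCre libraries had 138, 118 and 86.3 CPM, and the libraries labelled OsxCre;Stat3fl/fl had 91.7, 86.7 and 95.8 CPM. OsxCre libraries 1 and 2 were the highest of the 6, whereas OsxCre library 3 was the lowest. The OsxCre mean was 114 ± 26.3 CPM and the other 91.4 ± 4.57 CPM (SD, n = 3). On the log2 scale the difference was -0.32, with a 95% interval from -0.69 to 0.05 (adjusted p = 0.361, edgeR). Its size depended on single control libraries, since it was -0.15 (adjusted p = 0.700) without OsxCre library 1 and -0.49 (adjusted p = 0.104) without OsxCre library 3.

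The balance of *Sp7* against *Runx2* was widest among the controls. There were 3.004, 2.09 and 1.66 *Sp7* counts per *Runx2* count in OsxCre libraries 1, 2 and 3, and 2.11, 2.06 and 1.91 in libraries labelled OsxCre;Stat3fl/fl. The latter all fell inside the range of the controls. In OsxCre library 1, *Sp7* was at its highest and *Runx2* at its lowest control value, and in library 3 *Sp7* was at its lowest while *Runx2* lay between the other controls.

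*Hdac4*, a class IIa histone deacetylase that represses RUNX2 and MEF2 proteins and is also active in muscle, had the largest difference among the 8 tested regulators. It had 39.2, 49.1 and 46.9 CPM in OsxCre and 37.8, 30.3 and 34.0 CPM in libraries labelled OsxCre;Stat3fl/fl. The groups did not overlap, although OsxCre library 1 and library 1 of the other genotype were close. Its log2 fold change was -0.40 (standard error 0.12), with an interval from -0.68 to -0.13, and the adjusted p was 0.156 in edgeR. An unadjusted p under 0.05 was kept in 6 of 6 fits without one library. Of 14 skeletal muscle markers, 11 were higher, and edgeR called 1 higher and 1 lower, beside 0.776% and 0.481% of all genes. DESeq2 called 7 higher and 1 lower, beside 304 and 235 of all 15600 genes. At the unadjusted p in edgeR 7 were higher and 1 lower, beside 8.03% and 8.34% of all genes. Without scaling for library size 7 of 14 were higher, where the median log2 fold change of all genes was -0.38. The markers summed to between 34364 and 36927 CPM in OsxCre, and between 39335 and 59011 CPM in libraries labelled OsxCre;Stat3fl/fl. Among them *Myh3*, an embryonic myosin, rose by 1.71 on the log2 scale (adjusted p = 0.0204, edgeR), a call kept in 2 of the 6 fits without one library, those without OsxCre library 3 and without library 2 labelled OsxCre;Stat3fl/fl. *Myh4*, an adult fast myosin, fell by 3.61 (adjusted p = 3.87e-05) and stayed called in 6 of 6. The part of muscle in the *Hdac4* values was not tested.

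*Twist1*, a helix-loop-helix repressor that keeps suture mesenchyme from ossifying early, had 40.8, 35.6 and 36.0 CPM in OsxCre. It had 31.1, 33.5 and 29.9 CPM in libraries labelled OsxCre;Stat3fl/fl, all below the controls. For *Twist1* the log2 fold change was -0.25, with an interval from -0.47 to -0.03 (adjusted p = 0.245, edgeR), and the unadjusted p stayed under 0.05 in 3 of 6 fits without one library. *Twist2*, its close relative in skin and skull mesenchyme, had 9.52, 12.6 and 8.06 CPM in OsxCre and 9.73, 11.3 and 9.01 CPM in libraries labelled OsxCre;Stat3fl/fl. These values were interleaved, and the log2 fold change of -0.01 had a wide interval from -0.47 to 0.46 (adjusted p = 0.994, edgeR). The number of *Twist1* counts per *Twist2* count was 4.29, 2.83 and 4.47 in OsxCre and 3.20, 2.97 and 3.32 in the other genotype. Whether the pair differ in their response was not tested.

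*Prrx1*, a homeobox factor of the cranial and limb mesenchyme, was the most counted regulator, with 10872 counts over the 6 libraries. It had 206, 198 and 192 CPM in OsxCre and 166, 194 and 171 CPM in libraries labelled OsxCre;Stat3fl/fl. Library 2 of the latter lay inside the control range. The log2 fold change was -0.17, with an interval from -0.36 to 0.03 (adjusted p = 0.370, edgeR), and leaving that library out gave -0.23 (adjusted p = 0.246).

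**Figure D2:**
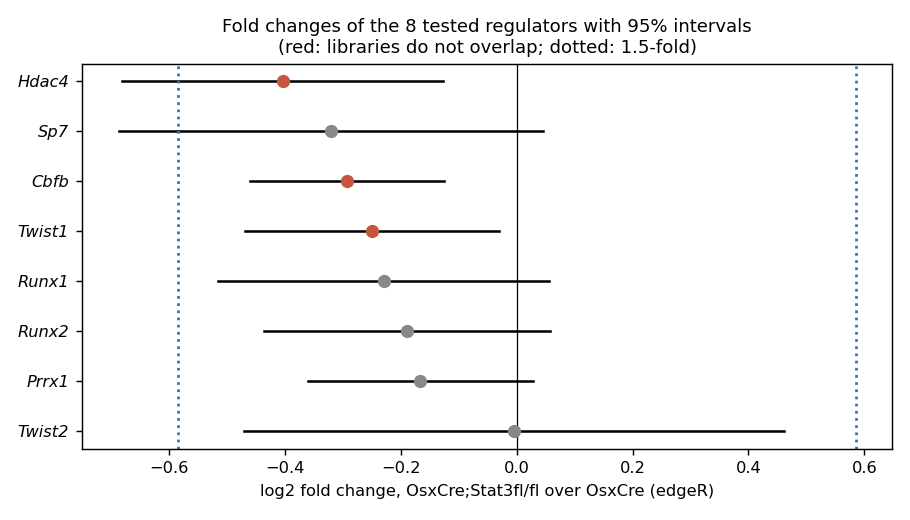
The x axis gives the log2 fold change of the 8 tested regulators, OsxCre;Stat3fl/fl over OsxCre, with 95% intervals from the edgeR fit. Red points mark *Hdac4*, *Cbfb* and *Twist1*, whose libraries do not overlap, and only the intervals of *Hdac4* and *Sp7* extend past the dotted line at 1.5-fold on the lower side.

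For 6 of the 8 tested regulators the 95% interval lay within a 1.5-fold change in either direction. The exceptions were *Hdac4* and *Sp7*, whose lower bounds were -0.68 and -0.69. Changes the size of the one seen for *Ibsp* (log2 fold change -0.66) would thus have been outside the intervals of *Runx2*, *Runx1*, *Cbfb*, *Twist1*, *Twist2* and *Prrx1*.

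Levels of different genes were set side by side per length of exon, as CPM per kb. The order in OsxCre was *Sp7* (37.6 ± 8.63), *Cbfb* (28.2 ± 0.784), *Twist1* (23.2 ± 1.80), *Prrx1* (17.9 ± 0.623), *Twist2* (7.57 ± 1.74), *Hdac4* (6.95 ± 0.800), *Runx2* (5.83 ± 0.594), *Runx1* (2.50 ± 0.248) and *Runx3* (0.0848 ± 0.0397, SD, n = 3). *Sp7* and *Cbfb* overlapped between libraries, as did *Twist2* with *Hdac4* and *Hdac4* with *Runx2*. The other neighbours in this order were apart in all 3 control libraries. In libraries labelled OsxCre;Stat3fl/fl the means followed the same order. Exon lengths came from a mouse annotation of mm9, and they matter for genes with several transcripts, since *Prrx1* reached 30.4 CPM per kb and second place when only its longest transcript was counted. With all exons counted, *Runx2* itself ranked seventh.

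**Figure D3:**
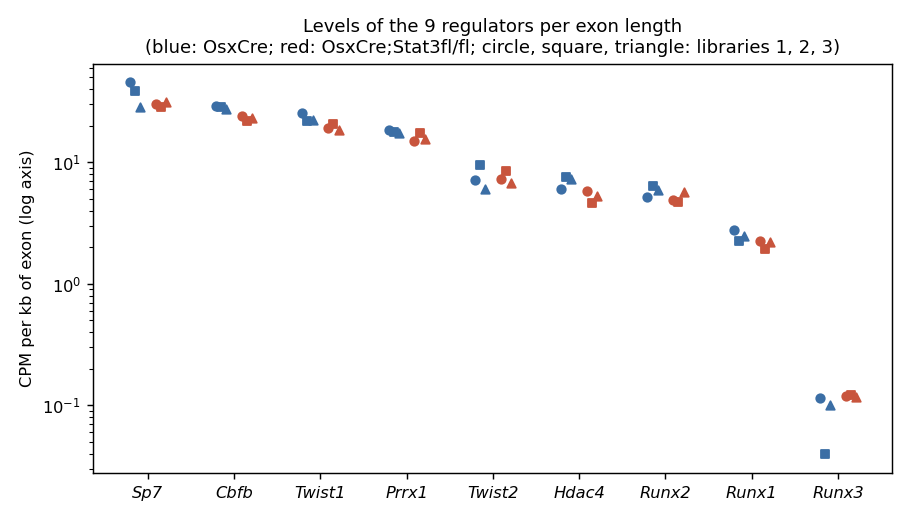
The y axis (log scale) gives CPM per kb of exon for each of the 9 regulators in all 6 libraries, ordered by the OsxCre mean. *Sp7* leads at 37.6 CPM per kb, *Runx2* lies at 5.83, and *Runx3*, at 0.0848, is set far below the rest.

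The bases before an annotated start of *Cbfb*, *Hdac4* and *Twist1* are shown because these 3 genes had non-overlapping libraries in the same direction. Matches to the GC box GGGCGG, a motif class bound by SP proteins, are in capitals on either strand.
Cbfb (chr8:105170424-105170673, plus strand): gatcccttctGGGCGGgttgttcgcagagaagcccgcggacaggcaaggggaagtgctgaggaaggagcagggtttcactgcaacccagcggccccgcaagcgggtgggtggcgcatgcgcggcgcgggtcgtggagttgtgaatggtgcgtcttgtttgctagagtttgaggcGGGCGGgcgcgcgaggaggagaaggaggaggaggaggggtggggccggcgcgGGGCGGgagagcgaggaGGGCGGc
Hdac4 (chr1:92180342-92180591, minus strand): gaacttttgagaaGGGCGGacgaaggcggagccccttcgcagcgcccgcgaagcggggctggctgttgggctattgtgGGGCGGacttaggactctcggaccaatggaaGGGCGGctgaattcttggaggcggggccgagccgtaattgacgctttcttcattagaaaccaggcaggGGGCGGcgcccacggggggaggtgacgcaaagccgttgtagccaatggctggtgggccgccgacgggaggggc
Twist1 (chr12:33957421-33957670, plus strand): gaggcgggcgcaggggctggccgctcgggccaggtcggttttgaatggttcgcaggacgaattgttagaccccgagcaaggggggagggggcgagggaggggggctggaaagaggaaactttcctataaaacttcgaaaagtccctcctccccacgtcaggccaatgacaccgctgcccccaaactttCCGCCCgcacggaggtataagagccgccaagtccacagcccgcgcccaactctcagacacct
Each run covers the 250 bases before an annotated start. For *Hdac4* that start, base 92180341, lies inside the gene, which spans 91928779 to 92195702 on the minus strand. The bases before the outer end of *Hdac4* were not read. Within the 250 bases shown, *Cbfb* and *Hdac4* held 4 GC boxes each and *Twist1* held 1. Over windows of 300 bases, 5 of the 10 windows of the regulators and 35.6% of all 32817 windows held a GC box. Among the 5, the *Twist2* window held 4 and a *Runx3* window held 3. GC boxes were thus not particular to the 3 genes shown. *Twist2* had a log2 fold change of -0.01, with an interval from -0.47 to 0.46. Whether GC boxes go with a lower level was not tested. The STAT motif TTCNNNGAA was in none of the 10 windows and in 8.29% of all windows. ACCACA was in 3 of 10 windows against 16.8% of all, and the E-box CANNTG, read by TWIST proteins, in 4 of 10 against 72.3%. No match says only that these letters are not in the window.

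Among 25 genes known as targets of RUNX2 or SP7, 2 fell at the adjusted p and 0 rose, and 7 were lower and 0 higher at the unadjusted p. Of all genes, 0.481% were lower and 0.776% higher at the adjusted p, and 8.34% and 8.03% at the unadjusted p. These counts are from edgeR. At the adjusted p DESeq2 called 4 targets lower and 0 higher, beside 235 and 304 of all 15600 genes, and limma-voom called 2 and 0. The median log2 fold change over the 25 was -0.14, and 18 were lower. It rested on single control libraries, with -0.02 and 15 lower without OsxCre library 1 and -0.26 and 18 lower without OsxCre library 2. *Ibsp*, bone sialoprotein, had 1017, 1060 and 932 CPM in OsxCre and 610, 663 and 627 CPM in libraries labelled OsxCre;Stat3fl/fl (log2 fold change -0.66, adjusted p = 0.0213, edgeR). *Col13a1*, a membrane collagen, had 40.6, 32.1 and 37.6 CPM against 23.1, 21.2 and 20.7 CPM (log2 fold change -0.76, adjusted p = 0.0271). Both were lower in every library labelled OsxCre;Stat3fl/fl, but the adjusted p of *Ibsp* stayed under 0.05 only without OsxCre library 3 or without library 2 labelled OsxCre;Stat3fl/fl, and that of *Col13a1* only without OsxCre library 2.

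Among the other targets, *Alpl*, the alkaline phosphatase of mineralization, differed by -0.54 on the log2 scale (adjusted p = 0.0578, edgeR). Its adjusted p was 0.000278 in DESeq2, 0.0589 in limma-voom, 0.0129 with no filter on low counts and 0.187 with the replicate block. In fits without one library it was between 0.0429 and 0.192. *Col1a1* had -0.14 (adjusted p = 0.750) with overlapping libraries. Expressed per *Runx2* count, *Alpl* had 6.03, 5.71 and 4.76 counts in OsxCre and 4.57, 4.49 and 3.88 in libraries labelled OsxCre;Stat3fl/fl, which did not overlap. By CPM, 12.2% of all genes did not overlap in the lower direction, and no such share was made for ratios. Whether *Alpl* differed beyond *Runx2* was not tested. *Ibsp* had 7.35, 8.97 and 10.8 counts per *Sp7* count in OsxCre and 6.65, 7.65 and 6.54 in libraries labelled OsxCre;Stat3fl/fl, where the ranges overlapped.

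Of 30 tested other transcription factors of the lineage, 0 passed the adjusted p in edgeR. At the unadjusted p 3 were lower, among them *Dlx3* and *Gli3*, and 2 higher, *Gli1* and *Junb*. The shares over all genes at that p were 8.34% lower and 8.03% higher. DESeq2 called 1 and limma-voom 0. Their median log2 fold change was -0.08, and between -0.09 and -0.01 in fits without one library, nearest to 0 without OsxCre library 1. *Gli1*, the transcriptional output of hedgehog signalling, had 79.4, 78.3 and 82.4 CPM in OsxCre and 122, 95.4 and 97.7 CPM in libraries labelled OsxCre;Stat3fl/fl (adjusted p = 0.127, edgeR).

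Proteins that work with RUNX factors split in direction. Of 34 tested, 1 rose at the adjusted p in edgeR and 0 fell, beside 0.776% and 0.481% of all genes, and DESeq2 called 2 higher and 0 lower. Their median log2 fold change was -0.04, and it turned to 0.04 without OsxCre library 3. At the unadjusted p 7 were higher and 1, *Tle2*, lower, beside 8.03% and 8.34% of all genes. *Cebpd*, a leucine zipper factor that can act with RUNX2, had 25.0, 19.2 and 22.5 CPM in OsxCre and 47.1, 60.1 and 46.3 CPM in libraries labelled OsxCre;Stat3fl/fl. All 3 latter libraries lay well above the controls, and its log2 fold change of 1.20 (adjusted p = 0.0142, edgeR) lost its call only without library 3 labelled OsxCre;Stat3fl/fl (adjusted p = 0.0715). *Zbtb16*, a zinc finger factor placed upstream of RUNX2 in some cell cultures, had 18.7, 6.74 and 7.22 CPM against 20.7, 38.2 and 43.7 CPM (log2 fold change 1.65, adjusted p = 0.121).

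In the circuit around HDAC4, *Hdac4* and *Hdac5* differed in direction, and neither was called in edgeR. The other tested family members, *Hdac7* and *Hdac9*, are not reported here individually. *Hdac5*, another class IIa deacetylase, had 112, 121 and 133 CPM in OsxCre and 151, 154 and 156 CPM in libraries labelled OsxCre;Stat3fl/fl, so it was above the controls in all 3 where *Hdac4* was below them. For *Hdac5* this was a log2 fold change of 0.34 (adjusted p = 0.103, edgeR), and without any scaling for library size it became -0.05, beside a median of -0.38 over all genes. The difference between *Hdac4* and *Hdac5* was not tested. Of 16 tested genes of the circuit, 0 passed the adjusted p in edgeR and limma-voom and 1, *Hdac5*, in DESeq2. At the unadjusted p 4 were lower and 2 higher, beside 8.34% and 8.03% of all genes. Among the lower ones was *Ywhaq*, a 14-3-3 protein (log2 fold change -0.34, adjusted p = 0.149, edgeR).

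Of the genes that bind or block TWIST proteins, 1 of 7 tested was lower, and 6 of 7 without scaling, when the median of all genes was also below 0. Of 7 tested, 0 passed the adjusted p in edgeR and limma-voom and 1, *Id1*, in DESeq2, and the median log2 fold change was 0.16. It ranged from 0.00 without library 3 labelled OsxCre;Stat3fl/fl, where 3 of 7 were lower, to 0.28 without OsxCre library 1, and was 0.04 without OsxCre library 2 and without library 2 labelled OsxCre;Stat3fl/fl, and 0.05 without OsxCre library 3. The 2 at an unadjusted p under 0.05 were the inhibitors *Id1* and *Id2*, both higher, as were 8.03% of all genes at that p. They encode proteins that take the partners of helix-loop-helix factors. *Id1* had 72.0, 58.3 and 68.5 CPM in OsxCre and 109, 95.4 and 91.2 CPM in libraries labelled OsxCre;Stat3fl/fl (log2 fold change 0.57, adjusted p = 0.0542, edgeR). For *Id2* the difference was 0.27 on the log2 scale (adjusted p = 0.204, edgeR). Without scaling it was -0.11, which is above the median of all genes there, -0.38. *Hand1* and *Hand2* were too low to be tested.

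Relatives of *Sp7* in the SP and KLF family had a median log2 fold change of 0.20 over 16 genes, all tested, and -0.18 without scaling, which is still above the median of all genes there. None passed the adjusted p in edgeR or limma-voom, and 2 (*Klf6* and *Klf2*) passed in DESeq2. At the unadjusted p in edgeR 7 were higher and 1, *Sp5*, lower, beside 8.03% and 8.34% of all genes. *Klf6* had 66.4, 60.6 and 74.9 CPM in OsxCre and 86.7, 110 and 104 CPM in libraries labelled OsxCre;Stat3fl/fl (log2 fold change 0.57, adjusted p = 0.0652, edgeR). *Klf2*, a factor of endothelium under flow, differed by 0.50 (adjusted p = 0.0807).

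**Figure D4:**
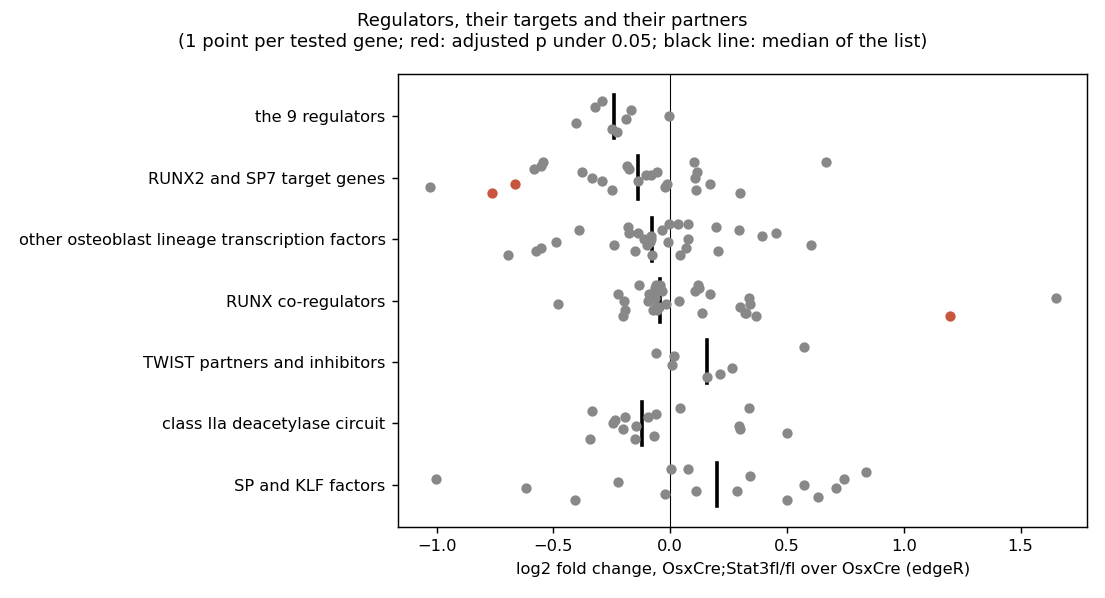
Each point is the log2 fold change (OsxCre;Stat3fl/fl over OsxCre) of 1 tested gene in a list, red where the adjusted p is under 0.05, and the black line is the median of the list. The regulators lie left of 0 around -0.24, and their targets around -0.14 (-0.02 without OsxCre library 1 and -0.26 without OsxCre library 2). The SP and KLF family lies around 0.20 (-0.18 without scaling, where the median of all genes was -0.38). *Ibsp* and *Col13a1* are red on the left and *Cebpd* is red on the right.

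The genes with the values most like those of the regulators over the 6 libraries were found by the root mean square difference of centred log2(CPM + 1) values. For *Runx2* these were *Dhx36*, *Fundc1* and *Zfp790*, at 0.047, 0.047 and 0.052, beside a median of 0.262 over 4718 candidate genes. For *Cbfb* they were *Tuba1b*, *Chst2* and *Calm2*, at 0.014, 0.023 and 0.040 against a median of 0.276. For *Sp7* they were *Tradd*, *Gm4544* and *Arhgef19*, at 0.110, 0.116 and 0.127 against 0.470. With so few libraries such likeness is a description of values.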

How the data were processed

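RNA-seq of parietal bone from newborn mice was available as 1 table of counts per library, for 3 OsxCre and 3 OsxCre;Stat3fl/fl libraries. Per the labels, polyadenylated RNA was made into libraries with a kit that does not mark strand. The authors deposited whole-number counts for each of 44556 gene symbols, without normalization. The submitters' processing notes name HISAT2 and GRCm38, whereas the paper's methods name TopHat and mm9, and the program and annotation that counted genes are not given in the sources used here. The study's methods count 3 mice of each genotype, all littermates, so the libraries of a genotype were taken as separate animals.

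Tests used edgeR 4.0.16 under R 4.3.3 (filterByExpr with a minimum count of 10 and minimum total of 15, TMM, quasi-likelihood test, two-sided, Benjamini-Hochberg over 15600 genes), limma 3.58.1 and DESeq2 1.42.0. CPM use TMM-scaled library sizes. The standard error is the fold change divided by the square root of F, and intervals of 95% use the t distribution of the fit. Floors of 3 counts, or between 0.248 and 0.366 CPM, and binomial intervals cover counting error only. Exon lengths were the union of exons in GENCODE for mm9, and promoter windows came from RefSeq (GRCm38.p6), in which *Sp7* was not matched. Alternatives were other scalings, filters and tests, the replicate number as a block, and leaving out each library.

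The 9 regulators and the gene lists were chosen with earlier results of these data known. Besides the regulators and *Stat3*, the genes named were those of each list past the adjusted p (at most 4) or, where fewer than 2 passed, the 2 of smallest p, and the 3 genes most like *Runx2*, *Sp7* and *Cbfb* with at least 10 CPM and at least the same SD. *Tle2*, *Dlx3*, *Gli3*, *Junb*, *Sp5*, *Col1a1*, *Zbtb16*, *Hbb-bs*, *Hbb-bt* and the markers given at 0 or at few counts were named after their values were seen. A few list members enter the counts and are not reported here individually.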

Additional observations from a re-analysis of the deposited data

How the results depend on the processing

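Without any scaling for library size, 7 regulators were lower at the adjusted p and 7 at the unadjusted p in edgeR, all but *Twist2*, against 0 and 3 with TMM. The median of all genes was then -0.38, and the regulators' median was -0.62, a difference of -0.24, the same as with TMM. In the other 16 alternatives 0 regulators were called, and between 2 and 4 had an unadjusted p under 0.05. The direction was kept for 7 of the 8 tested regulators in all alternatives. The exception was *Twist2*, with log2 fold changes of 0.0246 in limma-voom, 0.0135 with sample weights and 0.00955 with the replicate block, and between -0.14 and 0.18 without one library. Leaving out OsxCre library 1 took the regulators' median to -0.17. Same-numbered libraries did not vary together (r of -0.10, -0.53 and -0.07 across genes). Among libraries of unlike number, r was 0.53 for OsxCre library 2 with library 1 labelled OsxCre;Stat3fl/fl. With values centred within groups of 3 libraries, such r cannot show whether the samples were paired. With the replicate block 0 regulators were called, 2 had an unadjusted p under 0.05, and *Ibsp*, *Col13a1*, *Cebpd*, *Myh3* and *S100a9* had adjusted p of 0.122, 0.0981, 0.0979, 0.122 and 0.0965. For *Runx3*, tested only without a filter on low counts, the log2 fold change was 0.46 (adjusted p = 0.767), from 29 counts in all. With 1 transcript per gene, CPM per kb moved to 7.98 for *Runx2*, 11.4 for *Hdac4* and 30.4 for *Prrx1*. Over all genes, 75 were called lower and 121 higher, against 235 and 304 in DESeq2, 178 and 250 with no filter on low counts, 5451 and 121 without scaling, 114 and 112 with library totals and 1 and 0 with the replicate block. Without one library, between 5 and 36 were lower and between 7 and 67 higher. The causes were not tested.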

Other observations

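Markers of other cell types of the skull were read in the same libraries. Osteoclast markers summed to between 2244 and 2614 CPM in OsxCre and between 1965 and 2702 CPM in libraries labelled OsxCre;Stat3fl/fl. *Ocstamp*, which is needed for osteoclast fusion, differed by 0.83 on the log2 scale (adjusted p = 0.0509, edgeR), and its adjusted p was 0.0485 in limma-voom, 0.00506 in DESeq2 and 0.0182 with no filter on low counts, and between 0.0725 and 0.188 in fits without one library. In the same order, cartilage markers summed to between 2788 and 4231 CPM and between 3682 and 4629 CPM. Endothelial markers summed to between 528 and 748 CPM and between 663 and 780 CPM. Of 6 endothelial markers 6 were higher and 0 called by edgeR, with 2 at an unadjusted p under 0.05, beside 8.03% of all genes higher. Without scaling 0 of 6 were higher, and their median was -0.18, beside -0.38 over all genes. Markers of skin and loose connective tissue, where *Twist2* and *Prrx1* are also expressed, summed to between 1267 and 1555 CPM and between 1194 and 1514 CPM. B lymphocyte markers stayed between 11.3 and 19.3 CPM over the 6 libraries. Of 8 osteoblast markers, 5 were lower and edgeR called 1 lower, *Ibsp*, beside 0.481% of all genes, while DESeq2 called 2 lower. At an unadjusted p under 0.05 in edgeR 2 were lower and 0 higher, beside 8.34% and 8.03% of all genes. The sums were between 14188 and 19149 CPM in OsxCre and between 13206 and 16812 CPM in libraries labelled OsxCre;Stat3fl/fl.

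Neural markers varied widely within both genotypes, with sums between 100 and 367 CPM in OsxCre and between 30.9 and 311 CPM in libraries labelled OsxCre;Stat3fl/fl.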
